A study of Arabidopsis thaliana with 3 samples.

Results

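The auxin receptor genes of Arabidopsis thaliana comprise 6 members, TIR1 and AFB1 to AFB5, and were taken by name out of 27444 nuclear protein-coding genes. Of the 6, TIR1, AFB2 and AFB4 held a region of LDL1:GFP enrichment, and AFB1, AFB3 and AFB5 held none. A region was credited to a gene if at least 1 bp of it fell within the gene or within 1 kb of either gene end. By this rule 12.2% of all protein-coding genes held a region. The family was singled out because regions had been seen at some of its members, so the count of 3 of 6 is a description and was not tested against that share.

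The regions came from chromatin immunoprecipitation followed by sequencing in Col-0 seedlings that expressed LDL1 fused to green fluorescent protein (GFP) from the LDL1 promoter. Seedlings were grown under long days at 22 °C and harvested at 14 days, and the anti-GFP antibody ab290 was used in 2 ChIP libraries, labelled as biological replicates, for which DNA from at least 5 precipitations was pooled. The third library was an input of the same transgenic line, not precipitated, so all 3 libraries carry the transgene. Whether the line also keeps its endogenous LDL1 is not stated in the labels. An untagged or GFP-only control was not analysed here. LDL1 is a plant relative of the animal histone demethylase LSD1, which removes methyl groups from histone H3.

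TIR1 and the AFB proteins are F-box proteins that bind auxin. Each is the substrate-binding subunit of an SCF ubiquitin ligase. Auxin sits between the receptor and an Aux/IAA repressor and holds them together, the repressor is ubiquitinated and degraded, and the ARF transcription factors it had restrained are released. By sequence the family falls into the pairs TIR1 with AFB1, AFB2 with AFB3, and AFB4 with AFB5. The microRNA miR393 guides cleavage of TIR1, AFB2 and AFB3 transcripts.

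The ChIP data consisted of 5928 regions on the 5 nuclear chromosomes, given as coordinates without a score or count and not separated by replicate. No value below therefore has a replicate error, and the depth of the ChIP libraries is unknown. Median region width was 300.0 bp (interquartile range 241 to 411 bp). Regions are given on TAIR10 and gene positions on the RefSeq table for TAIR10.1, which shares its nuclear chromosomes. Gene strand, exons and untranslated regions were not used here, so places in a gene are given from its left end, the end with the lower coordinate. How the region edges were set is not stated, and places relative to a gene end hold for the edges as deposited. Seedlings mix many cell types, so a region does not show in which cells LDL1:GFP lay at a gene.

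TIR1 (AT3G62980), the founding member of the family, was the receptor gene with the most regions. It spans chromosome 3 from 23273065 to 23276630, a length of 3566 bp, and held 2 regions. The wider, at 23276327 to 23276792, measured 466 bp and lay across the right end of the gene, with 304 bp in the body and 162 bp beyond it. It was wider than 80.5% of all 5928 regions. The narrower, at 23274020 to 23274250, measured 231 bp and lay wholly inside the gene, from 26.8% to 33.2% of its length counted from the left end. A region wholly inside the body was found at 4.61% of protein-coding genes. Together the regions covered 535 bp, or 15.0%, of the TIR1 body. Holding 2 or more regions was uncommon over all protein-coding genes, at 1.99%, but was found at 8.65% of those in the outer 1 Mb of a chromosome, where TIR1 lies. Over all protein-coding genes, 0.39% had both a region inside the body and a region across an end. The shares of 4.61% and 0.39% were not split by chromosome position.

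No other annotated gene lay within 1 kb of either TIR1 region, so by the 1 kb rule neither was shared with a neighbour. The protein-coding gene to the left, AT3G62970, ended 72 bp before TIR1 and held no region. The narrower TIR1 region began 955 bp from the left end of TIR1, only just beyond the 1 kb flank of AT3G62970. The next to the right, AT3G62990, began 5952 bp beyond TIR1 and also held none. In the outer 1 Mb of a chromosome, 33.4% of protein-coding genes held a region. The nearest regions outside the gene lay 12449 bp to the left and 8954 bp to the right, the latter on the tRNA genes AT3G63003 and AT3G63006.

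AFB2 (AT3G26810), a receptor that acts with TIR1 in auxin-dependent root growth, held a single region. The gene spans chromosome 3 from 9867652 to 9870782 (3131 bp). Its region, at 9867522 to 9867832, measured 311 bp, close to the median width, and lay across the left end of the gene. Of it, 181 bp fell in the body, covering 5.78% of the gene, and 130 bp fell outside. Regions across an end of the body were found at 3.46% of protein-coding genes. The AFB2 region also had no other annotated gene within 1 kb. The nearest protein-coding neighbours, AT3G26800 and AT3G26820, lay 4873 and 10345 bp away and held no region. In the inner chromosome arms, where AFB2 lies, 8.77% of protein-coding genes held one. With its own counted, AFB2 had 3 regions within 100 kb, equal to the inner-arm median of 3.0. The next regions were 40491 bp to the left and 172850 bp to the right.

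AFB4 (AT4G24390), which with AFB5 forms the more divergent branch of the family and responds to picolinate auxins such as picloram, was counted only through its flank. It spans chromosome 4 from 12613076 to 12616238 (3163 bp). The region, at 12612091 to 12612384, measured 294 bp and ended 691 bp to the left of the gene, so none of it fell in the AFB4 body. Regions beside the body alone were found at 4.53% of protein-coding genes. In contrast to those at TIR1 and AFB2, this region was shared: 3 other protein-coding genes lay within 1 kb of it. It overlapped AT4G24370 by 129 bp and AT4G24380 by 7 bp, and AT4G24350 lay 622 bp away. AT4G24380 itself overlaps AFB4 by 644 bp. With each region assigned to its nearest protein-coding gene alone, by which 8.18% of genes held a region, the AFB4 region went to a neighbour. AFB4 was also left without a region with flanks of 500 bp (10.3% of genes) and when regions narrower than the median were dropped (5.66% of genes). It kept its region with flanks of 2 kb (15.6% of genes), when an overlap of 200 bp was asked for (10.7%), and without the 102 regions on tRNA, snRNA or rRNA genes (11.7%). TIR1 and AFB2 held a region under each of these rules, and AFB1, AFB3 and AFB5 under none. Regions overlap the bodies of TIR1 and AFB2, so a change of flank could not remove them. AFB1, AFB3 and AFB5 lie at least 4392 bp from a region, so none of these rules could give them one. The nearest region to the right was 66760 bp from AFB4, in UBP16.

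**Figure D1:**
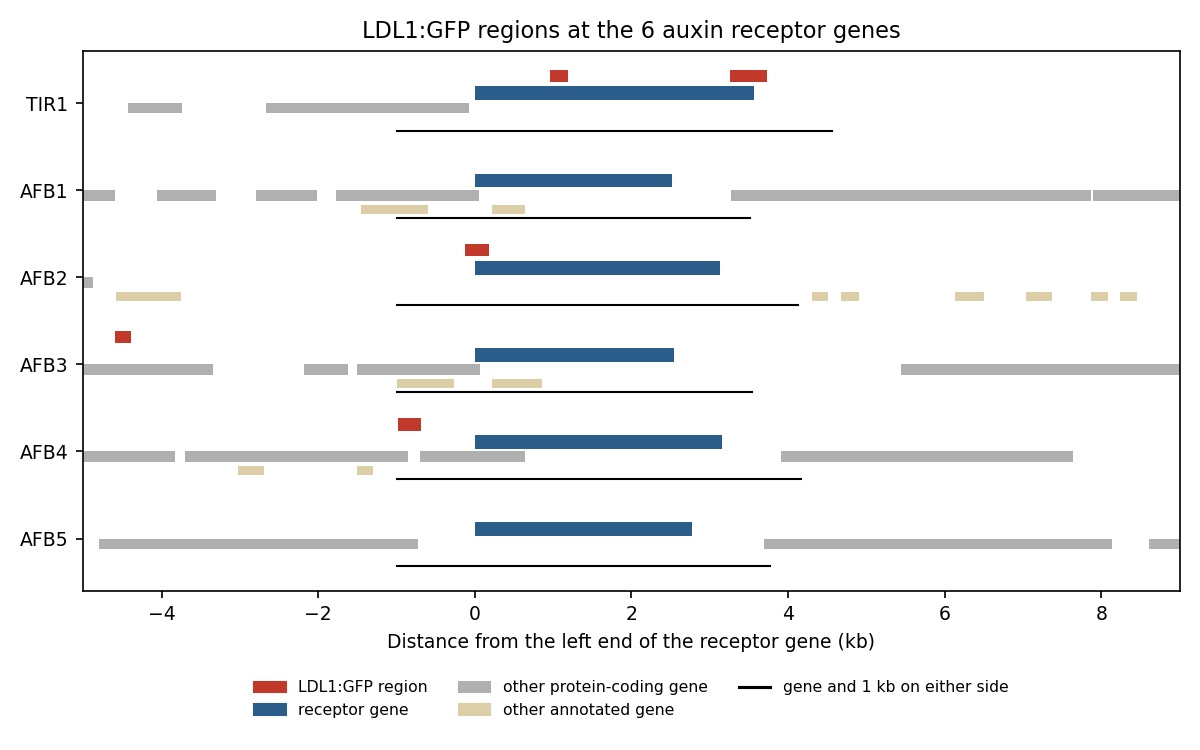
Maps of the 6 receptor genes, with distance from the left end of each receptor gene in kb on the x axis and a row for each gene. Red bars are LDL1:GFP regions, blue bars the receptor genes, grey and sand bars other annotated genes, and black lines the gene with 1 kb on either side; TIR1 has a region of 231 bp inside and of 466 bp across the right end, AFB2 has 311 bp across the left end, and the AFB4 region lies on neighbouring genes.

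Among the receptor genes without a region, the distances differed widely. AFB3 (AT1G12820), a receptor also linked to nitrate responses of the root, lies on chromosome 1 from 4368760 to 4371298 (2539 bp). Its nearest region was 4392 bp to the left, measured 198 bp and lay in AT1G12800. Another region, of 230 bp in AT1G12850, lay 9863 bp to the right. AFB3 was thus the gene closest to the threshold from outside, at 4392 bp, and AFB4 the closest from inside, at 691 bp.

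AFB1 (AT4G03190, listed as GRH1 in the gene table), a receptor known for fast auxin responses of the root, lies on chromosome 4 from 1404887 to 1407402 (2516 bp). Its nearest region, of 261 bp, was 22147 bp to the left in AT4G03115, and the nearest to the right was 88000 bp away. AFB5 (AT5G49980), through which picloram acts, lies on chromosome 5 from 20333897 to 20336671 (2775 bp) and was the most remote. Its nearest regions were 58421 bp to the right, outside any annotated gene, and 140991 bp to the left, in AT5G49700. None of the protein-coding genes next to AFB1, AFB3 or AFB5 held a region. Most protein-coding genes held none: a region was found at 8.77% of those in the inner chromosome arms, where these receptors lie.

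Across the family, distance to the nearest region was 0 bp for TIR1 and AFB2, followed by AFB4, AFB3, AFB1 and AFB5. The median over all protein-coding genes was 16573 bp (interquartile range 4889 to 41604 bp). A larger distance than that of AFB4 was found for 88.9% of protein-coding genes, than that of AFB3 for 76.5%, than that of AFB1 for 42.3%, and than that of AFB5 for 16.9%. AFB1 and AFB5 therefore lay beyond the median gene and the other 4 receptor genes nearer than it. By the main rule, a single member held a region in each of the 3 pairs of close relatives. For AFB4 and AFB5 this rested on the region beside AFB4. Neither of them held a region with gene bodies alone, with flanks of 500 bp, or without regions narrower than the median. The same was true with each region given to its nearest protein-coding gene only. The member of the pair without a region lay 22147 bp (AFB1), 4392 bp (AFB3) and 58421 bp (AFB5) from the nearest. With 3 pairs and members chosen for their regions, this pattern was not tested.

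**Figure D2:**
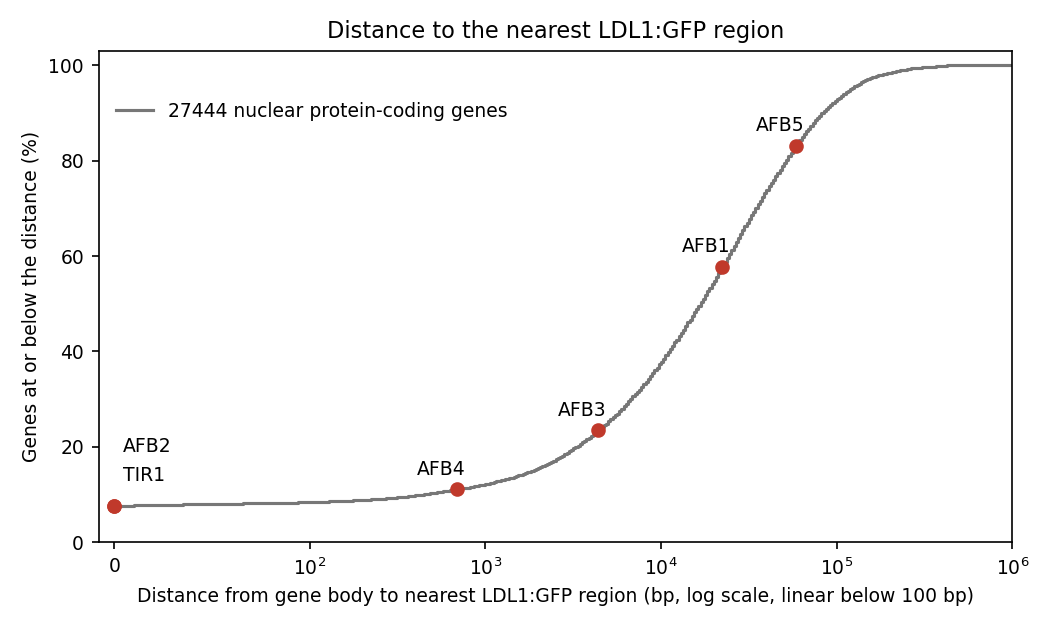
The percentage of 27444 nuclear protein-coding genes (y axis) whose nearest LDL1:GFP region lies at or below a given distance in bp from the gene body (x axis, log scale, linear below 100 bp). The grey line is all genes and red points are the receptor genes, with TIR1 and AFB2 at 0 bp, AFB4 at 691 bp, AFB3 at 4392 bp, AFB1 at 22147 bp and AFB5 at 58421 bp.

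The receptor genes lay in chromosome contexts that differed in region density. TIR1 lies 0.185 Mb from a chromosome end, measured from the gene midpoint. It was the only receptor gene in the outer 1 Mb of a chromosome, where 33.4% of protein-coding genes held a region and 8.65% held 2 or more. The other 5 lie in the inner arms, where the share was 8.77%. Distances from the end were 1.41 Mb for AFB1, 4.37 Mb for AFB3, 5.97 Mb for AFB4, 6.64 Mb for AFB5 and 9.87 Mb for AFB2. None lies in a gene-poor stretch, meaning 1 Mb of chromosome that contains under 150 protein-coding genes, where 23.3% held a region.

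Within 100 kb on either side of TIR1 there were 22 regions, against a median of 13.0 (interquartile range 10.0 to 18.0) for genes of the outer 1 Mb. Of those genes, 15.3% had more regions around them. The 22 regions ranged from 214 to 707 bp, and 1 was wider than the region at the right end of TIR1. Among the inner-arm receptors, AFB1 had 9 regions within 100 kb, AFB4 had 6, AFB2 and AFB3 had 3 each, and AFB5 had 1. The inner-arm median was 3.0 (interquartile range 2.0 to 5.0). Of the inner-arm protein-coding genes, 4.81% had more regions around them than AFB1, and 44.8% had more than AFB2. AFB1, without a region of its own, thus had more around it than AFB2, which had 1 across its left end, and 8 of the 9 lay to the left of AFB1. At AFB2, its own region of 311 bp was the widest of the 3.

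**Figure D3:**
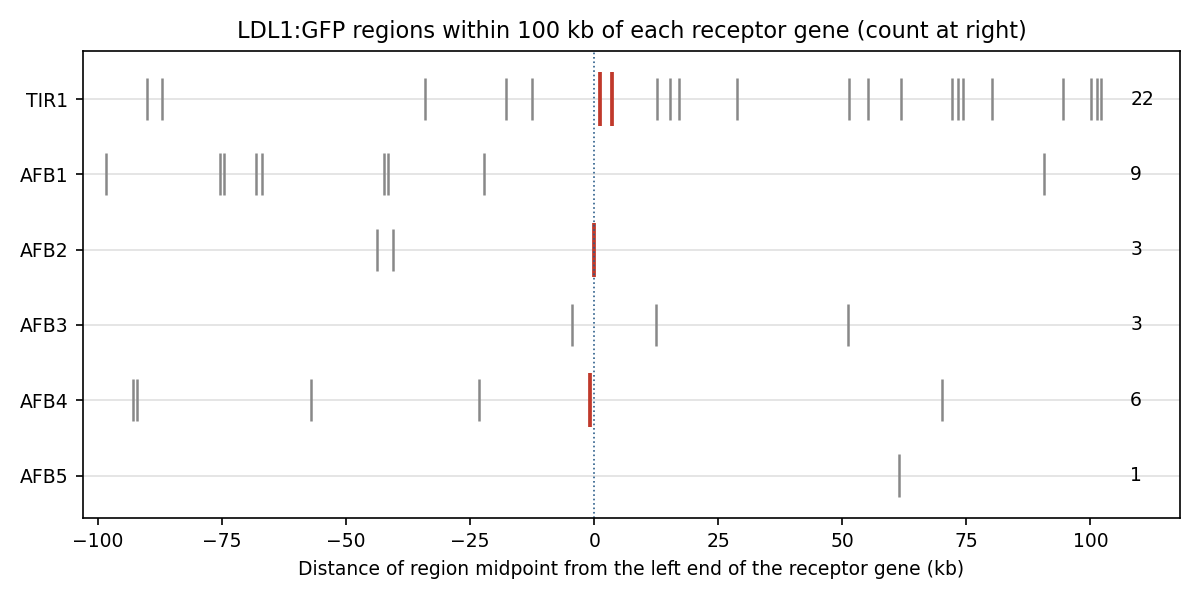
LDL1:GFP regions within 100 kb of each receptor gene, drawn as ticks at the region midpoint, with distance from the left end of the gene in kb on the x axis and a row per gene. Red ticks are regions that the receptor gene holds, grey ticks all others, and the number at right is the count, from 22 at TIR1 to 1 at AFB5.

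The receptor genes are longer than the median protein-coding gene (2516 to 3566 bp, against 2078 bp). Among the 5594 protein-coding genes in this range of lengths, 13.0% held a region and 8.44% had their body overlapped. Over all protein-coding genes the body was overlapped in 7.68% of cases, and among the receptors in 2 of 6, TIR1 and AFB2. The 3 receptors with a region were also the 3 longest of the family, and the part of gene length in the count was not tested.

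Input intervals were present at all 6 receptor genes. They covered between 97.7% (AFB3) and 99.6% (TIR1) of each gene with its flanks, and 98.5% of the nuclear genome. Both TIR1 regions and the AFB4 region were covered in full, and the AFB2 region over 95.2%, with 15 bp uncovered. The intervals carry no score or count and so no depth, and fold enrichment over input could not be given for any receptor gene.

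To place the receptors within auxin perception, 69 further genes of the pathway were examined, of which 12 held a region (17.4%, against 12.2% of protein-coding genes). The 69 include the 2 miR393 genes, which are not protein-coding. Among 14 genes for SCF subunits and the machinery that modifies the cullin, 2 held a region (14.3%, close to the 12.2% of all protein-coding genes). AXL, a relative of AXR1 in the activation of the cullin modifier RUB, was overlapped by a region of 280 bp. CUL1, the scaffold subunit of the ligase, was 736 bp from a region of 228 bp and was not overlapped. The median distance to the nearest region in this group was 30032 bp. COI1, the closely related F-box receptor for jasmonate, held none, and its nearest region lay 24848 bp away. Neither miR393 gene held a region. The nearest lay 9504 bp from MIR393A and 20103 bp from MIR393B, and 5.83% of the 326 annotated miRNA genes held a region.

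Of the 29 genes of the Aux/IAA family, which includes the repressors that the receptors bind, 2 held a region (6.9%, against 12.2% of all protein-coding genes). IAA32, 0.119 Mb from the end of chromosome 2, held 4 regions, the widest of 482 bp, and IAA16 held 2, the widest of 277 bp. Within 100 kb of IAA32 there were 92 regions, against a median of 13.0 for protein-coding genes of the outer 1 Mb. Of those outer genes, 33.4% held a region and 8.65% held 2 or more. IAA32 is among the family members that lack the degron bound by the receptors. Of 23 ARF genes, 8 held a region (34.8%, against the same 12.2%), and 6 of these belong to the group of 8 ARF genes at 12.4 to 16.7 Mb of chromosome 1. The widest regions of the ARF family, of 383 bp at ARF23 and 351 bp at ARF14, lay in this group. Of these 6 genes, 3 lie in gene-poor stretches, where 23.3% of protein-coding genes held a region, and 3 in the inner arms, where 8.77% did. The members of this group are related in sequence, and whether reads could be told apart between them was not tested. Outside that group 2 of 15 ARF genes held a region, close to the 12.2% of all protein-coding genes. Median distance to the nearest region was 16266 bp for the Aux/IAA genes and 4186 bp for the ARF genes, against 16573 bp over all protein-coding genes. No difference between these families and the receptors was tested.

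**Figure D4:**
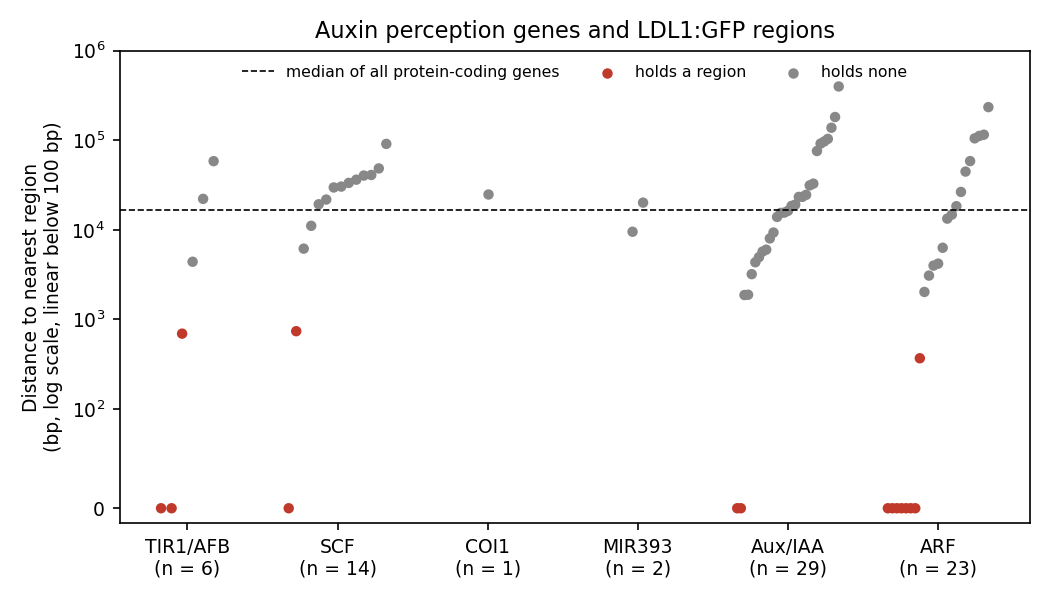
Distance from each gene to its nearest LDL1:GFP region in bp (y axis, log scale, linear below 100 bp) for the auxin perception genes, grouped on the x axis by family with the number of genes. Red points hold a region, grey points hold none, and the dashed line is the median of all protein-coding genes, 16573 bp. Regions are held by 3 of 6 receptors, 2 of 14 SCF genes, 2 of 29 Aux/IAA and 8 of 23 ARF genes. Over all protein-coding genes 12.2% held a region. Of the 8 ARF genes, 6 belong to a group on chromosome 1, and no difference between families was tested.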

How the data were processed

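The regions and input intervals were deposited as start and end coordinates, without score, count or header, 1 list for ChIP and 1 for input, told apart by name. The tools Bowtie and SICER and the build TAIR10 appear per the submitters' processing notes. The sources used here give neither their roles and settings nor the region threshold, nor how replicates and reads with several matches were handled. Coordinates are 1-based. Gene names, positions and biotypes came from the RefSeq table for TAIR10.1; sequence was not used here. Chromosome length was the end of the last input interval.

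The 6 receptors and the 69 pathway genes were chosen with earlier results of these data known. All were found by locus tag, and for 67 of the 69 the name was also in the table. Named were all receptors with their nearest regions and neighbours, COI1, both miR393 genes, SCF genes with a region, and the 2 Aux/IAA and 2 ARF genes with the widest regions. No test was run, because the rule for the family uses region presence. Counts were checked against a brute-force count at 400 of 400 genes on simulated regions, and distances at 400 of 400. Python 3.11.15, numpy 2.4.6, pandas 2.3.3 and matplotlib 3.10.9 were used.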

Additional observations from a re-analysis of the deposited data

How the results depend on the processing

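Under 7 alternatives the receptor count was 2 or 3 of 6, while the share of all protein-coding genes holding a region ranged from 5.66% to 15.6%. TIR1 and AFB2 held a region under all 7, while AFB1, AFB3 and AFB5 held none. Much of this was fixed by distance. AFB1, AFB3 and AFB5 lie at least 4392 bp from a region, beyond every flank used. Regions overlap the bodies of TIR1 and AFB2, so a change of flank could not remove them. AFB4 held none with gene bodies alone, with flanks of 500 bp, without regions narrower than the median (its region is 294 bp) and with each region given to its nearest protein-coding gene only. TIR1 kept 1 region at the median width or above. Protein-coding genes holding a region fell from 3350 to 2108 with gene bodies alone and to 1552 (5.66%) at the median width or above, where the pathway count fell from 12 to 5. Under the other alternatives the pathway count was 10 to 14 of 69. It was 10 with gene bodies alone (7.68% of protein-coding genes) and 14 with flanks of 2 kb (15.6%). The backgrounds by gene length and chromosome position were added after seeing the data. Replicates could not be left out, because the regions are not separated by replicate. No paired analysis was possible because the result comes from no test.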
